A study of Sus scrofa with 37 samples.

Results

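Beta cells purified from the pancreas of neonatal pigs were compared with beta cells purified at embryonic day 40 (E40), the youngest age of the study. The neonatal side held every beta cell library of postnatal day 8 (P8, 2 libraries) and postnatal day 22 (P22, 3 libraries), and the fetal side all 6 beta cell libraries of E40. Both neonatal ages had equal weight in the tests of single genes, while shares of TPM were averaged over the neonatal libraries without weights. These 11 libraries belong to a series of 37 RNA-seq libraries of pig islet cells sorted by FACS (fluorescence-activated cell sorting). Beta cells at E70 (5 libraries) and E90 (2) and alpha cells at E40 (3), P8 (2) and P22 (2) served as comparisons where they are named. The labels state tissue, cell type and age for each library and no genotype, strain or treatment beside them. Nothing in them says that libraries of an age came from separate animals, so p-values measure only the spread between these libraries, which may be technical. Levels are in TPM, the share of a library's transcripts that came from a gene, corrected for gene length. Differences are neonatal minus E40 on the log2(TPM + 1) scale with the standard error (SE) of a limma fit, a scale that understates the change of low genes. A gene is said to have risen or fallen where its Benjamini-Hochberg adjusted p, over the 17839 genes tested, was below 0.05.

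Beta cells make insulin as a precursor, cut it with prohormone convertases, pack it with zinc into granules and release it when glucose breakdown in the mitochondria raises the cell's ATP. In the fetus they are still dividing and release insulin poorly in answer to glucose. Around and after birth they gain that answer, a passage called maturation, which in rodents goes along with expression of the transcription factor MAFA and with slower division.

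The labelled cell type was checked first against INS, PDX1, NKX6-1, PCSK1, SLC2A2 and MAFA. The levels of PCSK1, SLC2A2 and MAFA are given below, and MAFA was low in every E40 library. INS took at least 9.41% of the TPM of each of the 11 libraries, PDX1 lay between 90.5 and 189 TPM and NKX6-1 between 67.6 and 212 TPM. E40 replicate 1 stood apart: its GCG level was 2297 TPM, against 21.9 to 664.9 TPM in the other 5 libraries of E40, replicate 6 being the highest of those. The summed red blood cell markers of replicate 1 reached 1154 TPM, against 35.6 to 97.4 TPM in the other 5. The summed TPM of 18 acinar markers, genes of the digestive enzyme cells that surround the islets, was 85.8 to 2337 at E40. It was 19070 and 5197 at P8 and 17420, 1827 and 45060 at P22, so 4 of the 5 neonatal libraries stood above every E40 library. P22 replicate 2, the lowest neonatal library in acinar markers, had the highest summed mesenchyme (910.6 TPM) and endothelial (250.4 TPM) markers of the 11. In libraries of many sorted cells, fewer cells of a type and less RNA per cell cannot be told apart.

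In total, 888 genes rose (4.98%) and 3754 fell (21%) between E40 and the neonatal ages. For 465 genes (2.61%) all 5 neonatal libraries lay above all 6 libraries of E40, and for 2733 genes (15.3%) all 5 lay below. TPM is a share of a fixed total, and the median difference over all genes was -0.20. With scaling by the median of ratios the median was 0.02, with 1870 genes higher and 2076 lower. With quantile normalization it was 0.01, with 1918 higher and 1909 lower. Calls made in the same direction under TPM and both of these scalings numbered 881 higher (4.94%) and 1657 lower (9.29%). That stricter count, adopted after the data were seen, stands beside each gene group below as calls held under 3 scalings. The shares of all genes given here are the background for the counts of each gene group. Without the 3 neonatal libraries highest in acinar markers, which left 1 library of P8 and 1 of P22, 662 genes rose and 1920 fell.

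**Figure D1:**
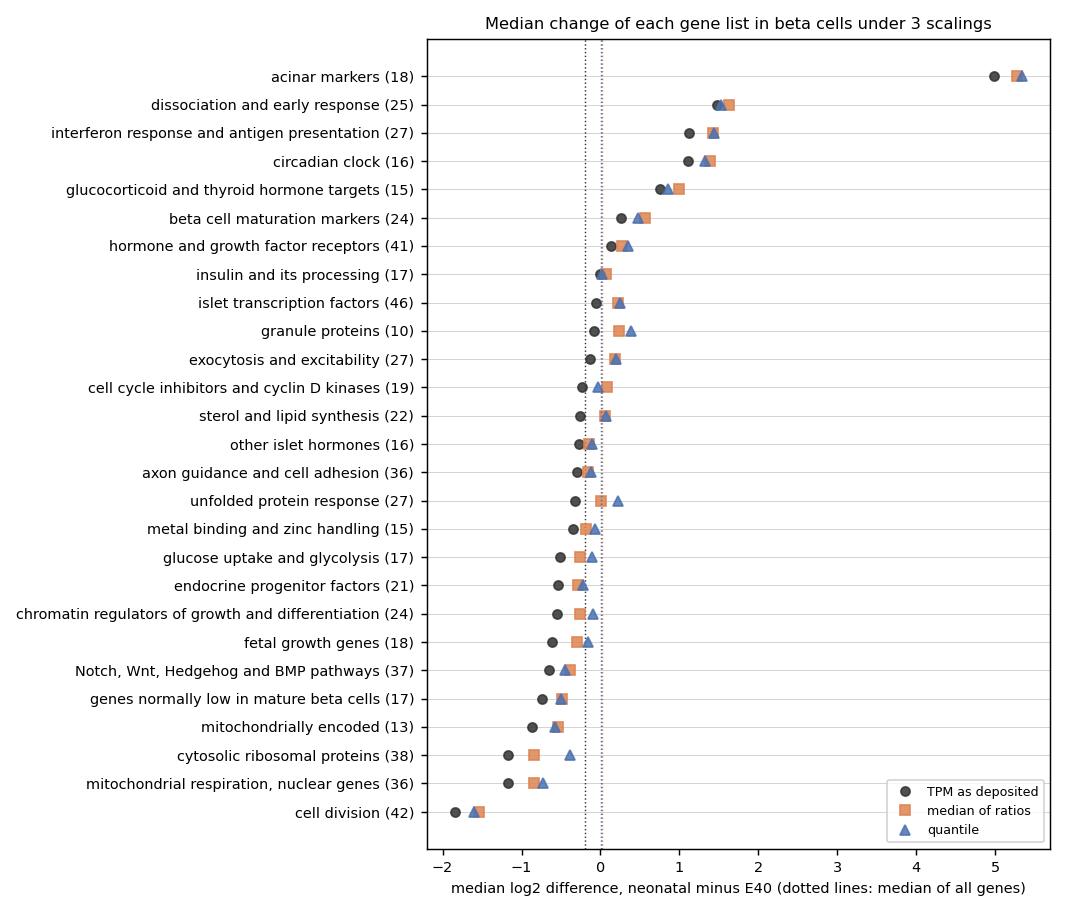
Median log2 difference (neonatal minus E40) of the genes in each list, with the number of genes tested in brackets, under TPM as deposited (circles), median-of-ratios scaling (squares) and quantile normalization (triangles). Dotted lines are the medians of all genes. Acinar, early response, interferon and circadian clock genes lie highest and cell division genes lowest (median -1.84 in TPM) under each scaling.

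Insulin transcripts took a larger share of the neonatal beta cell. The INS share of a library's TPM was 9.41% to 15.96% at E40, 35.84% and 32.02% at P8 and 26.89%, 23.93% and 35.02% at P22. All 5 neonatal libraries stood above all 6 of E40, with means of 30.7% ± 5.18 (SD, n = 5) and 13.0% ± 2.27 (SD, n = 6) and a two-sided exact permutation p of 0.002165, the smallest that this design allows. In the fit over all genes and all 37 libraries, which shares its spread with the alpha and delta cells, the log2 difference of INS was 1.27 ± 0.63. It did not pass the test there (limma, adjusted p = 0.15), nor with only the 3 groups compared in the fit (limma, adjusted p = 0.087). With median-of-ratios scaling the INS difference was 1.61 and did not pass either (limma, adjusted p = 0.088). Quantile normalization sets it to 0 because INS heads every beta cell library. The 10 most abundant genes together took 49.7% ± 3.69 (SD, n = 5) of neonatal TPM and 25.9% ± 1.67 (SD, n = 6) of E40 TPM (exact permutation p = 0.002165).

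Genes that handle proinsulin moved in both directions. Of 17 members of the list of insulin and its processing, 5 rose and 6 fell, and the 5 that rose were called under 3 scalings while none of the 6 falls was under TPM and both other scalings. SLC30A8, the transporter that loads zinc into insulin granules, lay between 203 and 288.2 TPM at E40 (median 239), at 690 and 657 TPM at P8 and at 548, 684 and 439 TPM at P22, a rise of 1.33 ± 0.19 (limma, adjusted p = 4.66e-06). PCSK1N, an inhibitor of prohormone convertase 1, had E40 levels of 115 to 234 TPM (median 139), P8 levels of 378 and 428 TPM and P22 levels of 260, 265 and 255 TPM, a rise of 1.11 ± 0.21 (adjusted p = 0.00016). Neither gene overlapped between the ages. The convertase itself, PCSK1, went the other way: 623 to 921 TPM at E40 (median 798), 250 and 350 TPM at P8 and 328, 286 and 218 TPM at P22, a difference of -1.45 ± 0.25 (adjusted p = 5.04e-05) with no overlap. After quantile normalization the PCSK1 difference was -0.60 (adjusted p = 0.16). PCSK2, the second convertase, did not pass the test in TPM (0.30 ± 0.16, adjusted p = 0.20) and was called higher under both other scalings (0.63 and 1.03).

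ERO1B, an oxidase that supports disulfide bonds in proinsulin, rose by 0.98 ± 0.22 (adjusted p = 0.0011); with P22 alone the difference was 0.48 and missed the test. SCG5, the chaperone of PCSK2, rose by 0.53 ± 0.17, but its call was lost in 4 of the 11 fits that left out 1 library (0.38 to 0.69) and with P22 alone (0.15). P4HB, a disulfide isomerase, rose by 0.77 ± 0.24, and its call was lost in 3 of those 11 fits (0.57 to 0.90) and with P8 alone (0.67). The falls were those of PCSK1, PAM, CPE, SCGN, SSR1 and PDIA4, of -0.61 to -1.45. That of PDIA4 was not called without P8 replicate 1 (-0.68) or with P8 alone (-0.73). Of these, SCGN, a calcium binding protein of islet cells, went from 683 to 1744 TPM (median 976) to 458 and 371 TPM at P8 and 499, 517 and 504 TPM at P22 with no overlap. CPE, the carboxypeptidase that trims insulin after cleavage, was also lower in all 5 neonatal libraries than in any of E40 (-0.74 ± 0.16), and its difference was -0.54, not called, with P8 alone and close to 0 after quantile normalization. SEC61B, SPCS1 and QPCT did not pass the test, and IAPP, which encodes the islet amyloid peptide, was listed at 0 in all 11 libraries.

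**Figure D2:**
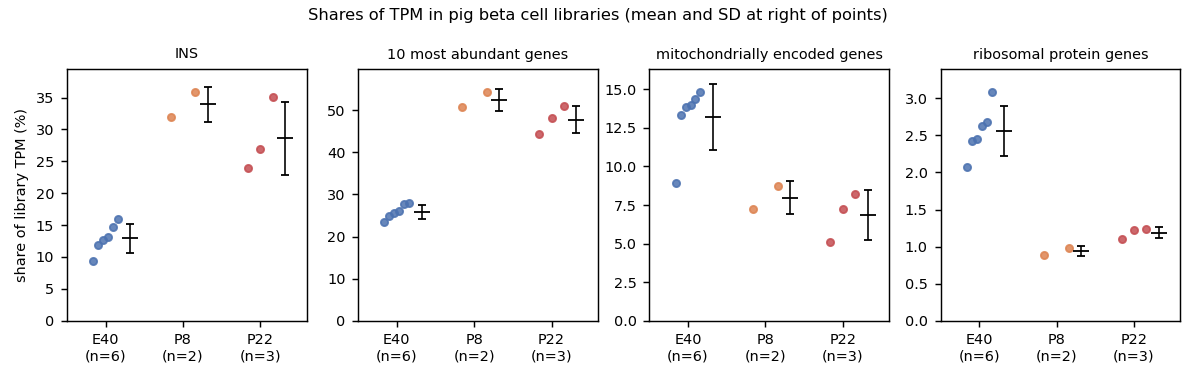
Share of library TPM (%) taken by INS, by the 10 most abundant genes, by mitochondrially encoded genes and by ribosomal protein genes in each beta cell library of E40, P8 and P22, with the mean and SD at the right of the points. INS and the 10 most abundant genes were higher, and the other classes lower, in all 5 neonatal libraries than in any E40 library.

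Among islet transcription factors, MAFA had the largest rise. MAFA, an activator of the insulin gene, was listed at 0 to 4.13 TPM in the 6 libraries of E40 (median 0.195), at 48.4 and 22.1 TPM at P8 and at 62.4, 47.4 and 46.0 TPM at P22, a rise of 4.72 ± 0.42 (limma, adjusted p = 1.62e-09). The groups did not overlap, and the difference was 4.39 without the 3 neonatal libraries highest in acinar markers. MEIS2, a homeobox factor, rose by 2.07 ± 0.38 from 18.8 to 114 TPM (median 30.03) to between 89.5 and 213 TPM, with 4 of 5 neonatal libraries above every E40 library.

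Smaller rises were those of NKX6-1 (0.93 ± 0.27), GLIS3 (0.95 ± 0.31), ST18 (0.90 ± 0.20), FOXA2 (0.82 ± 0.19) and the thyroid hormone receptor THRA (0.75 ± 0.21). ST18 did not overlap between the ages. The NKX6-1 and THRA calls were lost without P8 replicate 2 (0.80 and 0.64) and with P8 alone (0.94 and 0.61), the FOXA2 call with P22 alone (0.58), and the GLIS3 call in 4 of the 11 fits that left out 1 library (0.74 to 1.13) and with P8 alone (0.57).

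NEUROD1, a factor that drives endocrine differentiation, fell by 2.01 ± 0.23 (adjusted p = 8.99e-08). Its E40 levels were 428 to 996 TPM (median 714), its P8 levels 186 and 253 TPM and its P22 levels 137, 168.8 and 143 TPM. GATA4, a factor of early pancreas, fell by 1.67 ± 0.32 from 32.4 to 49.9 TPM (median 36.1) to 8.91 and 10.04 TPM at P8 and 10.9, 9.86 and 20.4 TPM at P22. Neither overlapped, nor did ESRRG, an orphan nuclear receptor that in mice takes part in the metabolic maturation of beta cells: 8.72 to 34.8 TPM at E40 (median 17.7), 1.66 and 0.55 TPM at P8 and 3.05, 3.35 and 1.79 TPM at P22, a difference of -2.73 ± 0.60 (adjusted p = 0.000855). FOXA1 (-1.43), a forkhead factor, and HNF4G (-1.46), of the hepatocyte nuclear factor 4 family, also fell with no overlap. With P22 alone HNF4G was at -0.93 and missed the test.

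Of 46 transcription factors tested, 8 rose and 10 fell, and 8 and 6 of them held under 3 scalings. Over all genes 4.98% rose and 21% fell, so the share of falls was near that of all genes. The falls of HNF4A, INSM1, ISL1 and NKX2-2 in TPM did not hold, with differences of -0.54 to -0.69. None of these 4 passed under either other scaling, the calls of ISL1, INSM1 and NKX2-2 were lost with only the 3 groups compared in the fit, and they were lost in 5, 6 and 4 of the 11 fits that left out 1 library (-0.72 to -0.45, -0.87 to -0.50 and -0.63 to -0.43). PDX1, the factor that defines pancreas and beta cell, did not pass the test: 90.5 to 189 TPM at E40 (median 102), 140.4 ± 40.4 TPM at P8 (SD, n = 2) and 130, 138 and 94.0 TPM at P22 (0.11 ± 0.35). PAX6 (0.15), RFX6 (0.03) and MLXIPL (0.18) did not pass in TPM and were called higher under both other scalings. PAX4, RFX3, FOXO1, MNX1, MYT1, TSHZ1, BHLHE41, IRX1, IRX2, ETV1, HHEX, ONECUT1, GATA6, LMX1A, MEIS1, TCF7L2, NR3C1, THRB, HOPX, SIX2 and SMAD9 did not pass the test in TPM.

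**Figure D3:**
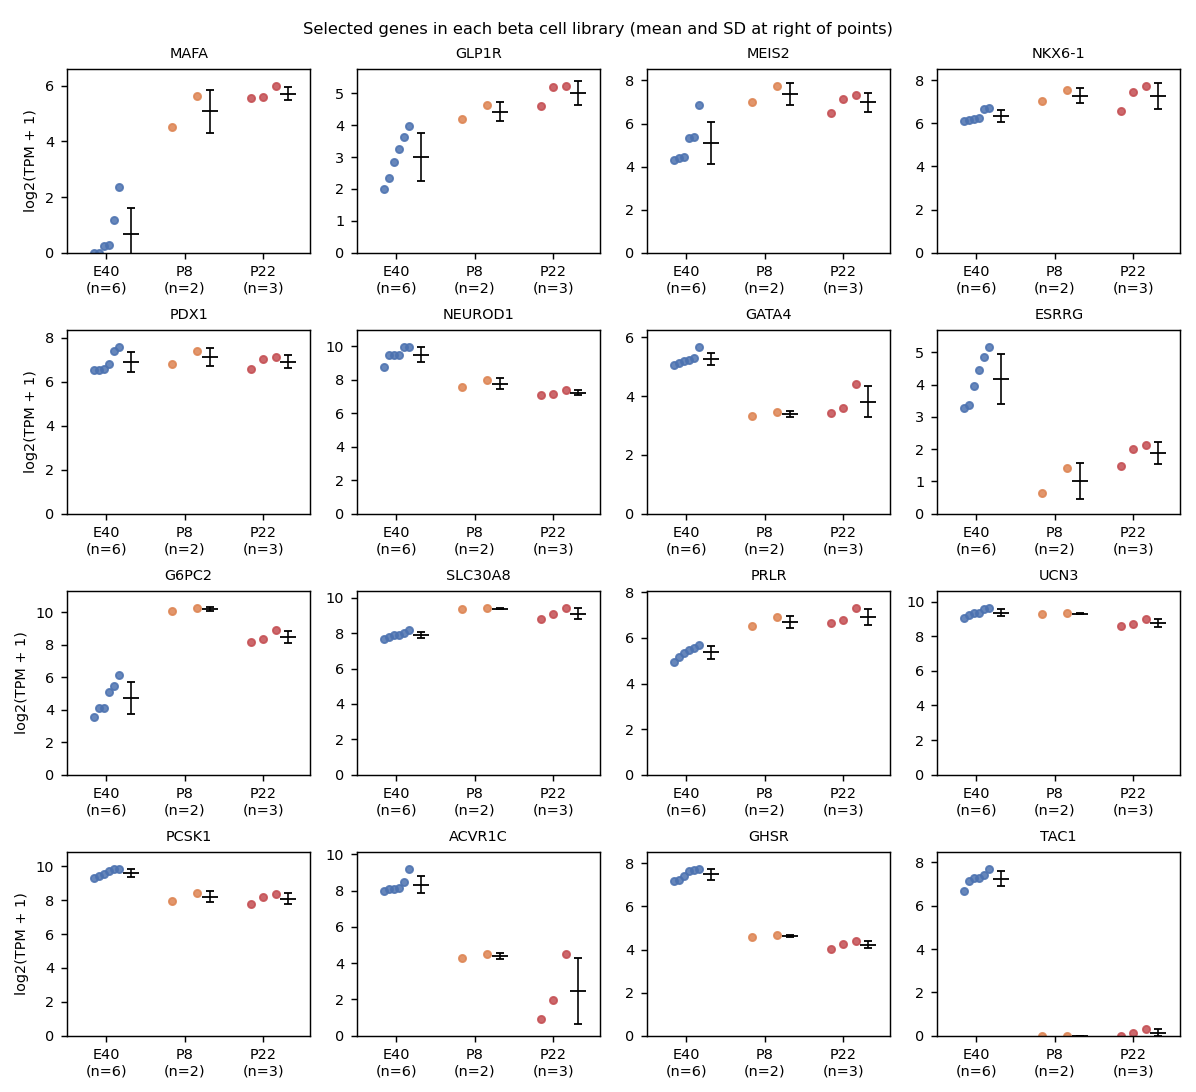
Levels of 16 genes as log2(TPM + 1) in each beta cell library of E40 (n = 6), P8 (n = 2) and P22 (n = 3), with the mean and SD at the right of the points. MAFA, G6PC2, SLC30A8, PRLR and GLP1R lie higher, and NEUROD1, GATA4, ESRRG, PCSK1, ACVR1C, GHSR and TAC1 lower, in all 5 neonatal libraries than in any E40 library, while PDX1 and UCN3 overlap.

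Markers of mature beta cells did not move as a block. Of 24 tested, 10 rose and 7 fell, and 10 and 3 held under 3 scalings. G6PC2, which reverses the first step of glucose use in beta cells, was at 10.8 to 68.6 TPM at E40 (median 24.5), at 1082 and 1224 TPM at P8 and at 319, 290 and 481 TPM at P22, a rise of 4.58 ± 0.44 (adjusted p = 4.98e-09) with no overlap. PRLR, the prolactin receptor, was at 29.9 to 50.4 TPM at E40 (median 41.5), at 91.3 and 119 TPM at P8 and at 100.3, 158.2 and 110 TPM at P22 (1.45 ± 0.23, adjusted p = 1.33e-05). CHRM3, the muscarinic receptor through which acetylcholine raises insulin release, rose by 1.86 ± 0.39 from 1.32 to 3.52 TPM to 16.03 and 15.8 TPM at P8 and 5.71, 6.70 and 10.7 TPM at P22. The groups of PRLR and CHRM3 did not overlap.

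NPTX2, a secreted pentraxin, rose by 1.62 ± 0.24 without overlap, and ROBO2, a guidance receptor that takes part in islet architecture, by 1.47 ± 0.21, or 0.84 with P22 alone. GLP1R, the receptor of the incretin GLP-1, was at 2.98 to 14.8 TPM at E40 (median 7.34), at 23.8 and 17.4 TPM at P8 and at 36.4, 35.8 and 23.0 TPM at P22. The groups did not overlap and the rise was 1.71 ± 0.58 (adjusted p = 0.027), but the call was lost in 5 of the 11 fits that left out 1 library (1.504 to 1.90) and with P8 alone (1.41). ENTPD3, a surface enzyme of mature beta cells, rose by 0.71 ± 0.26 and lost its call in 7 of those fits (0.51 to 0.91) and with only the 3 groups compared in the fit (adjusted p = 0.059). ENTPD3 was not called with P8 alone (0.76) or with P22 alone (0.655) either. MAFA and SLC30A8, given above, are also among the 10.

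UCN3, which in mice marks mature beta cells, was already at 530 to 792 TPM at E40 (median 646) and did not pass the test (-0.34 ± 0.26, adjusted p = 0.395), with 616 and 639 TPM at P8 and 383, 409 and 515 TPM at P22. After quantile normalization the UCN3 difference was 0.47 and still not called. SLC2A2, the glucose transporter of rodent beta cells, was at 62.7 to 81.3 TPM at E40 (median 63.5), 120 and 77.4 TPM at P8 and 140, 161 and 108 TPM at P22; it missed the test in TPM (0.75 ± 0.35, adjusted p = 0.12) and was called higher under both other scalings (1.08 and 1.30) and with only the 3 groups compared in the fit (0.75, adjusted p = 0.0024). GIPR, the other incretin receptor, fell in TPM by 0.60 and did not pass under the other scalings; its call was lost in 5 of the 11 fits that left out 1 library (-0.69 to -0.47). RGS4, RASGRF1, ROBO1 and SYT4 fell by 0.69 to 1.32. With P22 alone RGS4 (-0.89), ROBO1 (-1.03) and SYT4 (-0.62) were not called, with P8 alone RASGRF1 (-1.21) was not, after quantile normalization ROBO1 (-0.90) and SYT4 (-0.17) were not, and SYT4 was not without P8 replicate 1 (-0.48). TRPM5, ADCY8, SIX2 and NPY did not pass the test.

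Receptors for hormones and growth factors changed in both directions. Of 41 tested, 7 rose and 8 fell, and 7 and 6 held under 3 scalings. Over all genes 4.98% rose and 21% fell, so falls were about as frequent among receptors as among all genes. GHSR, the ghrelin receptor, was at 143 to 213 TPM at E40 (median 186), at 24.6 and 23.2 TPM at P8 and at 19.9, 18.0 and 15.4 TPM at P22, a difference of -3.06 ± 0.24 (adjusted p = 1.7e-10). ACVR1C, the activin receptor ALK7, was at 251 to 584 TPM at E40 (median 275.1), at 18.3 and 21.6 TPM at P8 and at 0.907, 2.92 and 21.3 TPM at P22, a difference of -4.90 ± 0.52 (adjusted p = 3.06e-08). GPR142, a receptor for aromatic amino acids that promotes insulin release and is not in this list, fell by 4.38 ± 0.37 from 31.2 to 81.8 TPM to at most 3.04 TPM. None of these 3 overlapped. TGFBR1 (-1.70), RET (-1.51) and the adrenergic receptor ADRA2A (-1.46), which restrains insulin release, fell as well without overlap, ADRA2A not being called with P8 alone (-1.02), and ERBB3 fell by 1.41, with -2.27 for P8 alone and -0.54, not called, for P22 alone. The somatostatin receptors rose: SSTR5 by 1.87 ± 0.37 and SSTR1 by 2.27 ± 0.63, the latter not called without P8 replicate 1 (1.93) or with P8 alone (2.33). No neonatal library overlapped the E40 libraries in SSTR1 or SSTR5.

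Peptide hormones other than insulin changed in both directions. TAC1, the substance P precursor, had the largest fall among called genes with a mean of at least 10 TPM and no overlap: 101 to 206 TPM at E40 (median 153), listed at 0 in both libraries of P8 and at 0, 0.24 and 0.089 TPM at P22 (-7.17 ± 0.67, adjusted p = 3.12e-09). GAL, the inhibitory neuropeptide galanin, fell by 4.52 ± 0.66 from 18.6 to 89.6 TPM (median 56.6) to 0 at P8 and 4.45, 4.26 and 2.29 TPM at P22. Neither overlapped. VIP and ADCYAP1, a pair of related neuropeptides, passed as falls on E40 medians of 2.44 and 1.14 TPM; every neonatal library listed ADCYAP1 at 0, and 1 of 5 listed VIP above 0. Neither was called with P8 alone or with only the 3 groups compared in the fit.

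Of the hormones of other islet cells, PPY (pancreatic polypeptide) was at 0 to 9.55 TPM at E40 (median 0.905), at 11.6 and 71.0 TPM at P8 and at 143, 45.7 and 194 TPM at P22, a rise of 4.57 ± 1.28 (adjusted p = 0.0075) that was lost without P8 replicate 2 (3.94) and with P8 alone (3.64). SST passed as a rise (2.63 ± 0.83), although E40 replicate 1, at 230 TPM, stood above all 5 neonatal libraries (12.7 to 84.8 TPM); its call was lost in 3 of 11 fits that left out 1 library (2.23 to 3.76), with P8 alone (2.29) and with only the 3 groups compared in the fit (adjusted p = 0.104). GCG passed as a fall (-2.49 ± 0.87) and lost the call in 6 of those fits, to -1.69 without E40 replicate 1, under both other scalings (-2.17 and -2.08) and with only the 3 groups compared in the fit (adjusted p = 0.114). PYY, GHRL, CCK, GAST, CARTPT, TTR, CRH, NPY and UCN3 did not pass the test in TPM, and TTR was called higher after quantile normalization (1.165). Of the 16 hormones tested, 2 rose and 5 fell, and 2 and 4 held under 3 scalings.

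Genes of membrane excitability and exocytosis moved in both directions. Of 27 tested, 4 rose and 8 fell, and 4 and 3 held under 3 scalings. CACNA2D1, an auxiliary subunit of voltage-gated calcium channels, was at 332 to 586 TPM at E40 (median 412), at 116 and 132 TPM at P8 and at 119, 142 and 106 TPM at P22, a difference of -1.74 ± 0.18 (adjusted p = 2.32e-08). SCN3A, a sodium channel, fell by 1.30 ± 0.22. KCNMA1, the calcium-gated potassium channel, rose by 1.05 ± 0.16, and SYT16, of the synaptotagmin family, by 2.68 ± 0.50. KCNG3, a silent subunit of voltage-gated potassium channels that is not in this list, was at 0 to 2.34 TPM at E40, at 31.5 and 31.4 TPM at P8 and at 31.8, 24.97 and 34.9 TPM at P22 (4.58 ± 0.39, adjusted p = 7.55e-10). CACNA2D1, KCNMA1, SYT16 and KCNG3 did not overlap between the ages. VGF, a granin-like granule protein from the list of granule proteins, fell by 1.37 ± 0.24, also without overlap.

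Enzymes of glycolysis were lower in TPM, but few of these differences stood under every scaling. Of 17 tested, 2 rose and 7 fell, and 2 and 2 held under 3 scalings. GAPDH, of the middle of the pathway, fell by 1.35 ± 0.14 from 538 to 633 TPM to between 191 and 249 TPM, and by 0.49 after quantile normalization, and its groups did not overlap in TPM. ENO2, the neuronal enolase, rose by 1.69 ± 0.39. PKM, a pyruvate kinase, was lower in all 5 neonatal libraries in TPM (-0.76 ± 0.18) and at 0.06 after quantile normalization. Among genes that mature beta cells keep low in rodents, 1 of 17 rose and 6 fell, of which 1 and 4 held: NDRG2 rose (1.52), and SLC16A1, the lactate and pyruvate transporter, fell by 1.60 ± 0.40, or by 1.19 with its call lost without P8 replicate 2. ACOT7 (-2.32, or -1.95 and not called with P8 alone), TGFBR1 and CXCL12 (-1.69) were the other 3. CXCL12 was not called without P8 replicate 1 (-1.19), without P22 replicate 3 (-1.36) with P22 alone (-1.04) or with only the 3 groups compared in the fit (adjusted p = 0.053).

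Nuclear-encoded respiratory genes fell together. Of 36 tested, 31 fell and 1, PPARGC1A, rose, with 21 and 1 held under 3 scalings and a median of -1.17. PPARGC1A, a coactivator of mitochondrial genes, stood at 1.15, or 0.14 with P8 alone, and lost its call in 7 of the 11 fits that left out 1 library (0.83 to 1.40) and with only the 3 groups compared in the fit (adjusted p = 0.118). COX6C, a subunit of cytochrome oxidase, was at 257 to 1296 TPM at E40 (median 973), at 62.5 and 91.3 TPM at P8 and at 86.5, 80.8 and 106 TPM at P22 (-3.22 ± 0.33, adjusted p = 1.26e-08). NDUFB8, of complex I, was at 128 to 205 TPM at E40 (median 147), at 32.2 and 23.9 TPM at P8 and at 34.7, 31.1 and 24.9 TPM at P22 (-2.37 ± 0.20, adjusted p = 9.59e-10). ATP5F1A, of ATP synthase, fell by 1.47 ± 0.16. None of the 3 overlapped. The 13 mitochondrially encoded genes took 7.30% ± 1.40 (SD, n = 5) of neonatal TPM and 13.2% ± 2.16 (SD, n = 6) at E40, with all 5 neonatal libraries below every E40 library (two-sided exact permutation p = 0.004329). Of these 13 genes 11 fell in TPM, and MT-ND4, MT-CO1 and MT-CYB held under 3 scalings, MT-CYB not being called with P8 alone (-0.67).

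Cytosolic ribosomal proteins also took a smaller share, 1.09% ± 0.152 (SD, n = 5) against 2.56% ± 0.334 (SD, n = 6) of TPM (exact permutation p = 0.002165, no overlap). In the fit 33 of 38 fell and 1 rose, and 11 and 1 held under 3 scalings. RPL27 fell by 2.15 ± 0.20, with 977 to 2124 TPM at E40 and 313 to 398 TPM in the neonatal libraries. The 1 that rose, RPL19, was at 0 to 7.47 TPM at E40, and its call was lost in 7 of the 11 fits that left out 1 library (1.73 to 2.45). Processed copies of ribosomal protein genes are common, and how the quantification divided reads among them was not tested.

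Cell division genes fell as a group. Of 42 tested, none rose and 39 fell, 37 of them under 3 scalings, with a median of -1.84 against -0.20 for all genes. MKI67, the proliferation antigen, was at 45.0 to 68.6 TPM at E40 (median 58.8), at 12.1 and 8.84 TPM at P8 and at 14.5, 3.91 and 20.1 TPM at P22 (-2.36 ± 0.41, adjusted p = 5.97e-05). UHRF1, which copies DNA methylation after replication, was at 37.1 to 65.5 TPM at E40 (median 45.1), at 6.76 and 4.995 TPM at P8 and at 12.1, 4.68 and 13.2 TPM at P22 (-2.52 ± 0.35, adjusted p = 2.21e-06). The replication helicase subunits MCM5 (-2.20), MCM6 (-1.48) and MCM7 (-1.33), the mitotic activator CDC20 (-1.99), the mitotic motor KIF11 (-2.42) and TOP2A (-2.25) fell too. No neonatal library reached the E40 range of MKI67, UHRF1, MCM5, MCM7, CDC20, KIF11 or TOP2A.

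Regulators of the G1 phase followed in part: 6 of 19 fell, 4 under 3 scalings, and none rose in TPM. CCND3, a D cyclin, fell by 1.38 ± 0.15 from a median of 87.3 TPM (lowest 80.6) to between 28.0 and 43.4 TPM, its partner CDK4 by 0.76 ± 0.14, the pocket protein RBL1 by 1.23 ± 0.16 and the inhibitor CDKN1A by 2.22 ± 0.58. CCND2, the D cyclin of postnatal rodent beta cells, did not pass the test (0.73 ± 0.51). Of 24 chromatin regulators 11 fell and none rose in TPM, and 4 were called higher after quantile normalization; 6 falls held under 3 scalings, among them the histone methyltransferase EZH2 (-1.32), the maintenance methyltransferase DNMT1 (-1.06), HDAC2 (-1.27) and the remodelling ATPase SMARCA4 (-1.03).

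Of 18 fetal growth genes 9 fell in TPM and none rose, while 2 were called higher with median-of-ratios scaling and 3 after quantile normalization. IGF2BP1, which stabilizes messages in fetal tissues, was at 37.2 to 57.4 TPM at E40 (median 45.1), at 0.297 and 0.23 TPM at P8 and at 0, 0 and 0.50 TPM at P22, a difference of -5.30 ± 0.35 (adjusted p = 1.25e-11). IGF2BP2 fell by 2.05 ± 0.21 from 92.1 to 120 TPM to between 19.3 and 31.5 TPM. LIN28B, which blocks let-7 maturation, fell by 2.37 ± 0.28. PEG10, an imprinted gene of retrotransposon origin, fell by 2.88 ± 0.37 from 426 to 970 TPM to between 38.6 and 128 TPM. The 4 genes did not overlap between the ages, and they were the 4 of the list whose falls held under 3 scalings. IGF2 itself did not pass the test (-0.57 ± 0.24, adjusted p = 0.089), was at 0.26 after quantile normalization and was called lower with only the 3 groups compared in the fit (adjusted p = 0.0405). It stayed at 525 to 1404 TPM in the neonatal libraries.

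Of 21 endocrine progenitor factors tested, 6 fell and none rose in TPM, while 2 were called higher with median-of-ratios scaling and 1 after quantile normalization. ONECUT2 (-2.72 ± 0.35), DLL1 (-1.84 ± 0.22), DLL4 (-1.70 ± 0.29), SOX11 (-1.56 ± 0.39) and SMOC1 (-1.84 ± 0.54) held under 3 scalings; SMOC1 was not called without P8 replicate 2 (-1.64) or with P8 alone (-1.42). DLL1, a ligand of Notch, was at 32.8 to 55.0 TPM at E40 and 8.25 to 15.3 TPM in the neonatal libraries. NEUROG3, the master factor of the progenitor, did not pass the test (1.20 ± 0.62, adjusted p = 0.17) and was at 7.47 to 32.8 TPM in the neonatal libraries. Along the Notch, Wnt, Hedgehog and BMP pathways 2 of 37 rose and 11 fell, 2 and 8 under 3 scalings: WNT4, a marker of mature islet cells in mice, rose by 2.73 ± 0.62 from 1.92 to 10.6 TPM to between 25.9 and 65.7 TPM, BMP2 by 1.55 ± 0.37, and TCF7 (-2.70), ID2 (-2.01) and NOTCH1 (-1.73) fell. The NOTCH1 difference was -2.89 with P8 alone and -0.57, not called, with P22 alone. The share of rises among the 37 pathway genes was near the 4.98% of all genes.

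Retinoid, matrix and cytoskeletal genes filled the other large falls: CRABP2 (-4.57) and RBP7 (-4.62), which bind retinoids, COL2A1 (-4.67), a cartilage collagen, GPC5 (-4.54), a heparan sulfate proteoglycan, and SCIN (-4.41), an actin-severing protein. GPC5 was at 155 to 277 TPM at E40 (median 177), at 10.4 and 7.24 TPM at P8 and at 6.62, 3.90 and 7.56 TPM at P22. COL2A1 and CRABP2 were uneven at E40, from 0.729 to 82.5 TPM and from 2.79 to 71.0 TPM. None of the 5 overlapped. Among guidance and adhesion genes 6 of 36 rose and 12 fell, 6 and 7 under 3 scalings; SEMA3A fell by 1.90 ± 0.33 and DCX, a microtubule protein of young neurons, by 1.57 ± 0.23, while SEMA3E rose by 2.29 ± 0.29 and NTN4 by 1.99 ± 0.35, each without overlap.

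Circadian clock genes rose as a group. Of 16 tested, 12 rose and 1 fell, all 13 under 3 scalings, with a median of 1.11. TEF, an output factor of the clock, was at 5.53 to 15.2 TPM at E40 (median 10.3), at 76.4 and 53.2 TPM at P8 and at 39.1, 52.4 and 41.6 TPM at P22 (2.34 ± 0.26, adjusted p = 8.36e-08). PER3 (1.83 ± 0.22), the repressor BHLHE40 (2.86 ± 0.34), HLF (0.95 ± 0.20) and the core activator ARNTL (1.03 ± 0.25) rose as well. None of these 5 overlapped.

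NFIL3, which competes with TEF and HLF for the same DNA sites, fell by 2.76 ± 0.28 from 33.2 to 82.1 TPM (median 47.2) to 7.61 and 2.83 TPM at P8 and 10.7, 5.88 and 9.18 TPM at P22. The core factor CLOCK (0.17 ± 0.18) and the repressor CRY1 (-0.13 ± 0.23) did not pass the test in TPM; CLOCK was called higher under both other scalings (0.50 and 0.63), and CRY1 turned positive without being called (0.17 and 0.09). The labels give no hour of collection, and its part in these values was not tested. Of 15 genes that glucocorticoids or thyroid hormone induce elsewhere, 6 rose and 1 fell, 6 and 0 under 3 scalings; KLF9 rose by 1.83 ± 0.28 from 3.81 to 7.02 TPM to between 11.7 and 26.7 TPM, and MT2A, a metallothionein, by 4.63 ± 0.91.

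**Figure D4:**
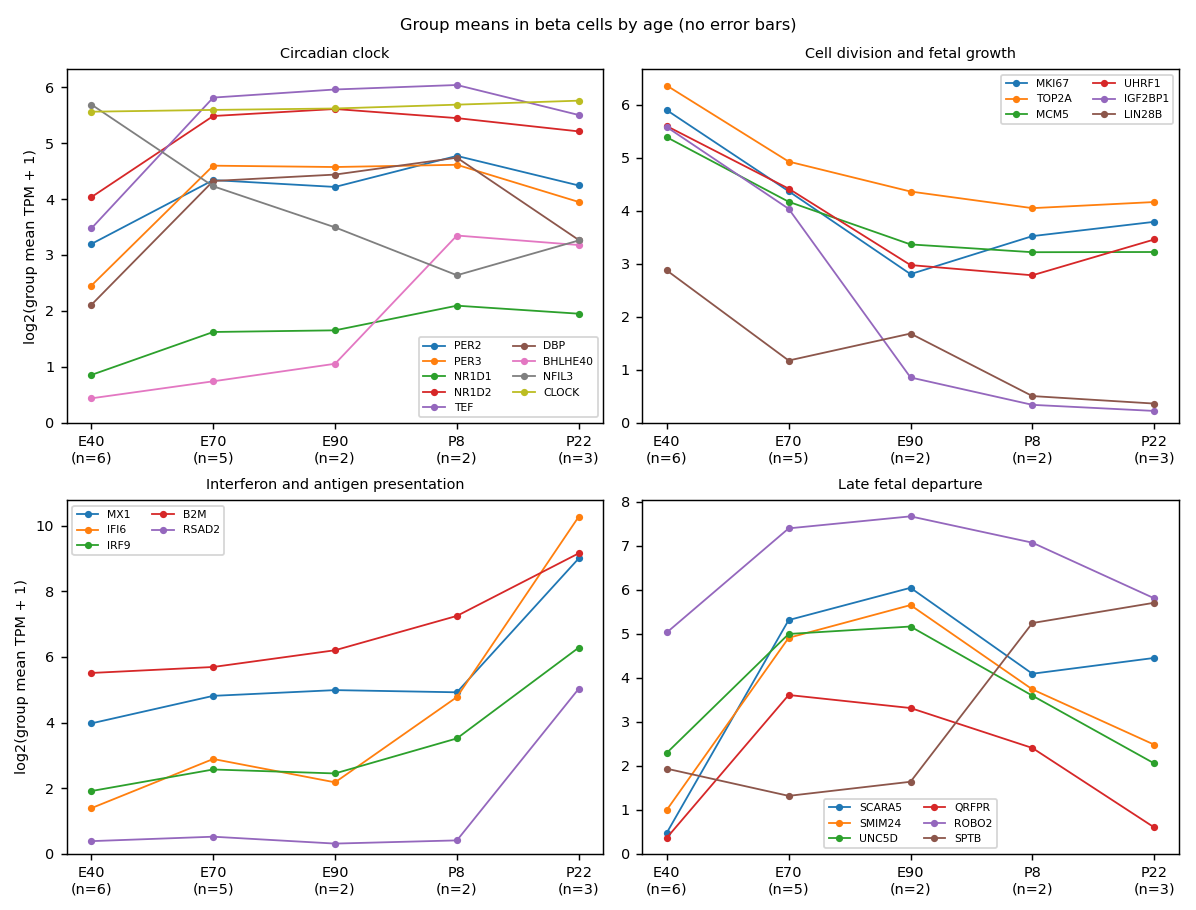
Group means by age in beta cells, as log2(mean TPM + 1), for clock genes, cell division and fetal growth genes, interferon and antigen presentation genes, and genes whose late fetal level differed from the mean of both ends. TEF stands at 10.1 TPM at E40 and 55.3 TPM at E70, the 5 interferon genes have their highest mean at P22, and SCARA5, SMIM24, UNC5D, QRFPR and ROBO2 have theirs at E70 or E90.

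Interferon response and antigen presentation genes rose, and the genes named here stood higher at P22 than at P8. Of 27 tested, 16 rose and 1 fell, all 17 under 3 scalings, with a median of 1.12. MX1, an antiviral GTPase, was at 8.29 to 19.4 TPM at E40 (median 15.3), at 26.0 and 32.6 TPM at P8 and at 972, 304 and 264 TPM at P22 (2.91 ± 0.28, adjusted p = 7.25e-09). IFI6, an interferon-induced mitochondrial protein, was at 0.873 to 2.66 TPM at E40 (median 1.49), at 10.9 and 42.0 TPM at P8 and at 1658, 1896 and 173.5 TPM at P22 (5.74 ± 0.82, adjusted p = 3.58e-06). B2M, the invariant subunit that MHC class I needs at the surface, was at 25.7 to 84.7 TPM at E40 (median 40.9), at 151 and 152 TPM at P8 and at 676, 668 and 372 TPM at P22 (2.78 ± 0.31, adjusted p = 6.6e-08). The 3 genes did not overlap between neonatal and E40 libraries.

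With P8 alone the differences of MX1 (0.996) and IRF9 (1.83) were not called, that of RSAD2 was 0.04, and those of B2M (1.85) and IFI6 (3.14) were; with P22 alone MX1 was at 4.83 and RSAD2 at 4.17. The difference between P8 and P22 was not tested. The immune cell markers, 16 genes of leukocytes, summed to 26.2 to 48.4 TPM at E40, 36.9 and 49.6 TPM at P8 and 146.1, 55.2 and 38.3 TPM at P22, and none of the 16 passed the test (limma; 0 under TPM and both other scalings, 1 at an unadjusted p below 0.05). Their part in the interferon result was not tested.

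Early response genes, which sorting and tissue digestion can induce within minutes, rose as well. Of 25 tested, 12 rose and 1 fell, and 12 and 0 held under 3 scalings, with a median of 1.48. FOSB was at 0 to 7.22 TPM at E40 (median 2.17), at 202 and 199 TPM at P8 and at 592, 652 and 579 TPM at P22 (6.98 ± 1.11, adjusted p = 1.65e-05). JUNB (4.68 ± 0.73), DUSP1 (4.17 ± 0.67), NR4A1 (2.79 ± 0.49) and the heat shock gene HSPA1A (3.60 ± 0.59) rose with no overlap. FOS was at 6.02 to 25.1 TPM at E40 and 224 to 585 TPM in the neonatal libraries (5.12 ± 1.12). How the tissue was dissociated at each age is not given in the sources used here, and its part in these values was not tested.

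Folding and lipid genes moved little as groups. Of 27 genes of the unfolded protein response 9 fell and none rose in TPM, 5 were called higher after quantile normalization, and among the falls only MANF, a secreted stress protein, held (-1.25 ± 0.24); its call in turn was made with no overlap between 74.4 to 133 TPM at E40 and 20.02 to 69.5 TPM in the neonatal libraries. HSPA5, the main chaperone of the endoplasmic reticulum, did not pass (-0.60 ± 0.24, adjusted p = 0.07) and was at 0.22 after quantile normalization. Of 22 sterol and lipid genes 3 rose and 6 fell, 3 and 4 under 3 scalings: SCD, which desaturates fatty acids, rose by 1.55 ± 0.23, and the sterol enzymes IDI1 (-1.51) and FDFT1 (-1.26) fell, each of the 3 with no overlap. In the metal list 4 of 15 rose and 4 fell, 4 and 2 under 3 scalings, with MT1G at 0 to 10.99 TPM at E40 and 39.1 to 402 TPM in the neonatal libraries (4.64 ± 1.05); with P8 alone the MT1G call was lost (3.92).

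Digestive enzymes and their cofactors made up 8 of the 10 largest rises among called genes with a mean of at least 10 TPM and no overlap. PNLIPRP1, a lipase-related protein, was at 1.04 to 156 TPM at E40 (median 8.25), at 6342 and 1276 TPM at P8 and at 7986, 862 and 8439 TPM at P22 (8.02 ± 1.12, adjusted p = 2.64e-06). CPB1, a carboxypeptidase, was at 0 to 26.6 TPM at E40 (median 0.425), at 855 and 315 TPM at P8 and at 709, 37.1 and 2681 TPM at P22 (7.75 ± 1.02, adjusted p = 1.09e-06). CLPS (6.69), CTRB2 (6.57), AMY2A (5.72), PRSS3 (5.60) and PNLIP (5.43) followed, and CTRL, listed at 0 in all 6 libraries of E40, was at 5.58 to 678 TPM in the neonatal libraries. None of these 8 overlapped. The same genes were uneven among neonatal libraries, with P22 replicate 2 the lowest of the 5 in PNLIPRP1, CPB1, CLPS, CTRB2, AMY2A and PRSS3. AMY2A, PRSS3 and CTRB2 belong to families of close copies, so the division of reads within them is uncertain. Without the 3 libraries highest in acinar markers AMY2A (3.42) and PRSS3 (3.51) were not called and PNLIP was at 3.29.

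The 18 acinar markers counted 11 rises and no fall, all 11 under 3 scalings. Lists of other cell types had fewer calls in TPM. Duct markers had 1 rise and 2 falls of 16, mesenchyme markers 0 and 2 of 19, endothelial markers 1 and 0 of 11, neural and Schwann cell markers 0 and 2 of 10, red blood cell markers 0 and 2 of 9, alpha cell markers 4 and 6 of 23 and delta cell markers 2 and 2 of 15. Duct rises numbered 6 with median-of-ratios scaling and 7 after quantile normalization, and endothelial rises 4 and 3. Under 3 scalings these were 1 and 1, 0 and 1, 1 and 0, 0 and 1, 0 and 2, 4 and 4, and 2 and 1. The 2 red cell falls were those of HBB and HBA2, whose E40 levels ranged from 3.56 to 256 TPM and from 4.68 to 823 TPM. Their P22 replicate 2 levels were 83.7 and 60.9 TPM, and neither was called with P22 alone (-2.30 and -3.02).

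Alpha cells of E40, P8 and P22 were set against beta cells to test whether net changes differed between the lineages. The net change of beta cells differed from that of alpha cells for 128 genes in the higher direction (0.718%) and 1604 in the lower (8.99%), with a median difference over all genes of -0.51. That shift went with the scaling: the higher direction held 7.39% of the genes called in TPM, 61.1% of the 463 called with median-of-ratios scaling and 59.5% of those called after quantile normalization. Under all 3 scalings 120 genes were higher (0.673%) and 0.813% of the genes tested were lower. Without P8 replicate 1 of beta cells the TPM count was 803 instead of 1732, and without alpha E40 replicate 1, alpha P22 replicate 1 or alpha P8 replicate 2 it was 827, 956 or 1047. Alpha E40 had only 3 libraries, and alpha P8 and P22 had 2 each.

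MAFA differed between the lineages: its net change was 4.72 in beta cells and 0.79 in alpha cells, a difference of 3.93 ± 0.68 (limma interaction, adjusted p = 0.00064). SPTB, a spectrin, rose by 3.60 in beta cells and was at -0.07 in alpha cells (difference 3.67 ± 0.53, adjusted p = 0.0001), and FXYD2, a regulator of the sodium pump, was at 4.18 and -0.31 (4.49 ± 0.76, adjusted p = 0.00055). PAQR9, a membrane progestin receptor family member, was at 3.43 and -1.06 (4.49 ± 0.68, adjusted p = 0.00021). SLC2A2 was at 0.75 and -1.77 (2.52 ± 0.56, adjusted p = 0.0057). For PHACTR3 the difference came mostly from the alpha side, with 0.81 in beta cells against -3.38 in alpha cells. The vitamin D binding protein GC was called in the same direction, with a difference of 4.83. In beta cells GC was at -0.90 and did not pass the test (limma, adjusted p = 0.24). Each of these differences held under 3 scalings.

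In the other direction, ERC2, an active zone protein, was at -3.87 in beta cells and 0.46 in alpha cells (difference -4.32 ± 0.48, adjusted p = 2.8e-06). GHSR was at -3.06 and -0.78 (-2.28 ± 0.38, adjusted p = 0.00055). CXCL12, a chemokine, was at -1.69 and 3.83 (-5.52 ± 0.81, adjusted p = 0.00016), SNCB, beta-synuclein, at -2.41 and 2.79, PCDH17, a protocadherin, at -0.45 and 3.92, and ADGRL3, a latrophilin, at -3.90 and 1.56. PAPPA2, a protease that frees insulin-like growth factors from a binding protein, rose in both, by 1.997 and 6.25 (difference -4.25 ± 0.42). IGF2 was at -0.57 in beta cells and 2.34 in alpha cells (-2.90 ± 0.39, adjusted p = 4e-05). Each of these also held under 3 scalings. AFM (4.13) and TEX35 (4.17) were called higher but lost the call in 3 and 4 of the 18 fits that left out 1 library (3.54 to 4.72 and 3.61 to 4.72 over the 18), among them the fits without beta P8 replicate 1 and without alpha E40 replicate 1. The changes of AFM (1.32) and TEX35 (0.46) within beta cells did not pass the test.

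For the hormones no difference between beta and alpha cells passed the test: INS -0.62 ± 1.01, GCG -1.54 ± 1.39, SST 0.40 ± 1.33 and PPY 2.66 ± 2.04. The clock genes PER3 (1.83 in beta, 2.05 in alpha cells) and TEF (2.34 and 2.03) and the phosphatase gene G6PC2 (4.58 and 4.66) did not pass the test either, with differences of -0.22 ± 0.35, 0.31 ± 0.42 and -0.08 ± 0.70; those of PER3 (0.34 and 0.64) and G6PC2 (0.46 and 0.61) were positive, and not called, under both other scalings. MX1 differed, by 1.83 ± 0.45 (adjusted p = 0.012), as the only 1 of the 27 interferon genes called in this comparison in TPM. In alpha cells 14 of the 27 rose and 0 fell, with a median of 1.32 against 1.12 in beta cells. Also in alpha cells, 15 of 25 early response genes rose and 1 fell, and 9 of 18 acinar markers rose and 0 fell. Of 36 nuclear-encoded respiratory genes 20 fell and 0 rose, and of 38 ribosomal protein genes 23 fell and 1 rose.

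**Figure D5:**
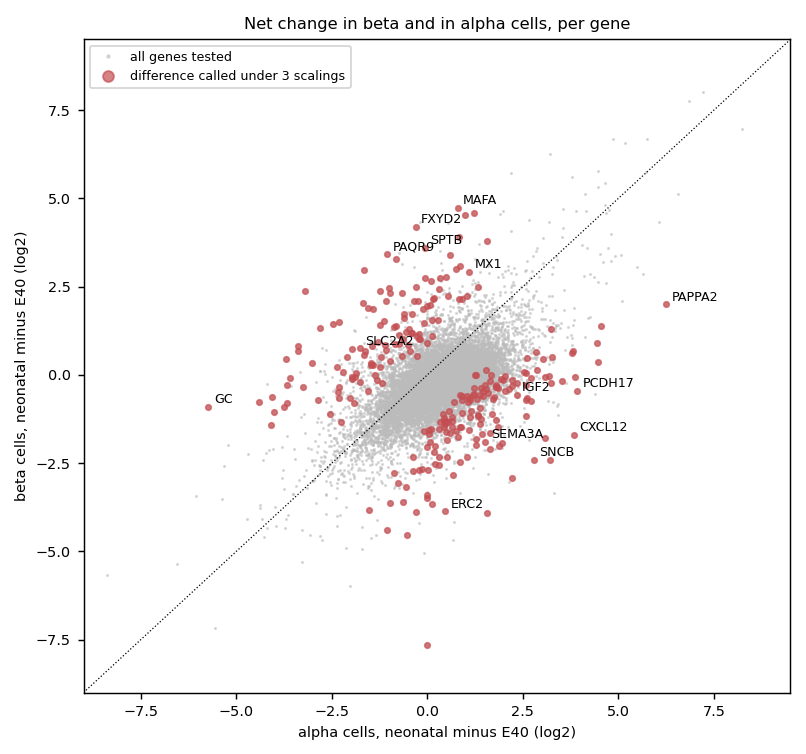
Net change (neonatal minus E40, log2) of each gene in alpha cells (x axis) and beta cells (y axis); the dotted line marks equal change. Red points are the 120 genes above the line and the 0.813% of genes below it whose difference was called under 3 scalings, with MAFA, SPTB and FXYD2 high in beta cells near 0 in alpha cells, and CXCL12, PCDH17 and PAPPA2 at the right.

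A net change does not show genes that rose and fell back, so the late fetal ages were set against the mean of both ends. A gene that only rose or only fell, early or late in the span, can also be called by this contrast. The mean of E70 and E90 beta cells stood above the mean of both ends for 435 genes (2.44%) and below it for 106 (0.594%); 229 (1.28%) and 104 (0.583%) were called under 3 scalings. E90 had 2 libraries, and leaving out either took the count from 541 to 155 without replicate 1 and to 0.939% of the genes tested without replicate 2; without P8 replicate 1 it was 277. SCARA5, a ferritin receptor, had group means of 0.391 TPM at E40, 38.7 TPM at E70 and 65.0 TPM at E90 and neonatal levels of 10.03 to 29.6 TPM (departure 3.34 ± 0.36, adjusted p = 7.85e-07). SMIM24 had means of 0.996, 29.0 and 49.3 TPM and neonatal levels of 2.71 to 15.0 TPM (3.21 ± 0.28, adjusted p = 2.4e-08). UNC5D, a netrin receptor, went from 3.90 TPM to 30.9 and 34.9 TPM and was back at 2.04 to 13.5 TPM (2.51 ± 0.30), so that its net change did not pass the test in TPM (0.60 ± 0.35). The prostaglandin receptor PTGER3 (2.61), LHFPL3 (3.03) and QRFPR (2.50), a peptide receptor, also stood above both ends.

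Several genes of the net comparison also differed from the mean of both ends, which does not place them beyond both ends. ROBO2 averaged 31.6 TPM at E40, 167.4 TPM at E70 and 202 TPM at E90 (1.80 ± 0.18), and ANXA2, an annexin, 53.5, 800 and 1322 TPM before neonatal levels of 400 to 1020 TPM (2.48 ± 0.30). The clock genes PER3 (1.20 ± 0.19) and TEF (1.27 ± 0.22) were above the mean of both ends, as were 8 of the 16 clock genes under 3 scalings. Below it were AMY2A (-5.78), CPB1 (-4.42) and PNLIP (-2.32), MT1G (-3.68), complement C3 (-2.45) and COCH (-2.45), a secreted matrix protein; the calls of C3, PNLIP and MT1G were lost in 15, 5 and 3 of the 18 fits that left out 1 library (-2.76 to -2.22, -2.75 to -1.88 and -3.87 to -3.50), and the COCH call without E90 replicate 2 (-2.09). SPTB, at 1.49 and 2.11 TPM at E70 and E90 and 31.8 to 61.0 TPM in the neonatal libraries, was below as well (-2.22 ± 0.28). MAFA, at group means of 12.9 TPM at E70 and 23.3 TPM at E90, did not pass this test (1.15 ± 0.36, adjusted p = 0.082), nor did INS (0.16 ± 0.54), GCG (0.45 ± 0.74), SST (2.21 ± 0.71) or PPY (2.58 ± 1.08).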

How the data were processed

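The authors' deposited table gives TPM, a gene's length-corrected share of a library's transcripts, for 22630 genes in 37 libraries. The submitters' processing notes name Salmon 0.11.3; genome build and annotation: not given in the sources used here. Per the labels' protocols, total RNA was made into stranded libraries for paired-end reads. Each column sums to 1e+06, so depth is unknown and no counting interval is given. Symbols came from the table (18624 genes) or a gene name list (168 of 4006 without one). A symbol shared by several identifiers (2625 genes) leaves the division of reads uncertain.

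The 17839 genes that reached 1 TPM in 2 or more libraries entered a fit of log2(TPM + 1) with limma 3.58.1 (R 4.3.3; lmFit, contrasts.fit, eBayes with trend), with 12 groups of cell type and age and 25 residual degrees of freedom, and were called at adjusted p below 0.05. Contrasts were the mean of P8 and P22 minus E40, the same minus the change in alpha cells, and the mean of E70 and E90 minus the mean of E40 and neonatal. Shares of TPM were compared by two-sided exact permutation, with all neonatal libraries counted alike whatever their age. The fit was tested on simulated data.

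The comparison, members and 36 gene lists were chosen with earlier results of these data known, so lists have counts and medians only. Named genes were the 10 genes that rose most and the 10 that fell most, among those called without overlap and with a group mean of at least 10 TPM, the 5 members of a list with the lowest adjusted p, all members of 4 lists (insulin and its processing, hormones, transcription factors, maturation markers), and the 6 largest each way of the other contrasts. RET, ADRA2A, SSTR1, SSTR5, KCNG3, PKM, PPARGC1A, RPL19, MKI67, KIF11, TOP2A, CCND2, EZH2, DNMT1, IGF2, NEUROG3, WNT4, BMP2, HLF, ARNTL, CLOCK, CRY1, FOS, HSPA5, SPTB and ANXA2 were chosen after their values were seen, as were the genes beside the 6 largest in the alpha and late fetal comparisons. Some genes the rule picked are not reported here. Alternatives changed the pseudocount, filter, scaling, weights or libraries; both that left out libraries by their marker levels, and a block over libraries with neighbouring title numbers, were chosen after seeing the data.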

Additional observations from a re-analysis of the deposited data

Results flagged for a closer look

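Among 199 genes named above with a mean of at least 1 TPM at E40, 14 had an E40 library far from the other 5 on the log2 scale; chance alone gives about 1 in 20 such groups. E40 replicate 1 was the highest in SST (230 TPM), MCM6 (127 TPM), SCD (14.3 TPM) and UNC5D (8.5 TPM) and the lowest in ONECUT2 (6.56 TPM). E40 replicate 2 was the highest in SCN3A (86.8 TPM), FOS (25.1 TPM) and RPL19 (7.47 TPM) and the lowest in SMOC1 (4.03 TPM), COL2A1 (0.729 TPM), AFM (0.0913 TPM) and PRSS3 (listed at 0). E40 replicate 3 was the highest in CPB1 (26.6 TPM) and the lowest in SSTR1 (listed at 0). Of 13 marker sums and shares of TPM, 4 had E40 replicate 1 apart from the others: the summed endothelial (83.95 TPM), red blood cell (1154 TPM) and alpha cell (4476 TPM) markers, and the mitochondrially encoded share (8.933%).

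The net change of beta cells differed from that of alpha cells, by the interaction test under 3 scalings, for 18 of the genes named in the alpha cell comparison. These 18 were named as the largest called differences of that test or after their values were seen, so their number follows from the choice. Over all genes tested, 0.673% were higher and 0.813% lower under 3 scalings. Among genes named elsewhere above, CHRM3, COCH, FOXA1, KCNG3, NTN4, SCARA5, SCD and SMIM24 also differed in the higher direction under 3 scalings. ERBB3, GPC5, GPR142, ONECUT2, SCN3A and SEMA3A did so in the lower direction. Among the 18, the beta minus alpha difference was positive for GC (4.83), FXYD2 (4.49), PAQR9 (4.49), PHACTR3 (4.19), TEX35 (4.17), AFM (4.13), MAFA (3.93), SPTB (3.67), SLC2A2 (2.52) and MX1 (1.83). It was negative for CXCL12 (-5.52), ADGRL3 (-5.46), SNCB (-5.20), PCDH17 (-4.38), ERC2 (-4.32), PAPPA2 (-4.25), IGF2 (-2.90) and GHSR (-2.28). TEX35 and AFM lost the call in 4 and 3 of the 18 fits that left out 1 library. Within beta cells the changes of GC (-0.90), PHACTR3 (0.81), TEX35 (0.46), AFM (1.32), SLC2A2 (0.75), PCDH17 (-0.45) and IGF2 (-0.57) did not pass the test in TPM.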

How the results depend on the processing

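The share of the genes tested that was called between neonatal and E40 beta cells was 26.0% (4642 genes), and its count stayed within 1.5 times under every other setting of scaling, filter, pseudocount, weights and libraries (17.7% with P8 alone to 35.5% with array weights, and 3389 to 4497 genes when 1 library was left out), except that it was 14.6% without the 3 neonatal libraries highest in acinar markers. The share of the beta and alpha comparison, 9.71% (1732 genes), became 2.6% with median-of-ratios scaling, 2.59% with quantile normalization, 1.80% without hormone and mitochondrial genes, 17.5% with array weights and 4.51% to 10.6% when 1 library was left out. That of the late fetal comparison, 3.03% (541 genes), became 17.7% with array weights and 0.870% to 3.84% when 1 library was left out. Lower counts of lists became, with median-of-ratios scaling, quantile normalization and rescaling without hormone and mitochondrial genes in turn: insulin processing 3, 0 and 3 (6 in TPM), exocytosis 3, 4 and 3 (8), glycolysis 2, 2 and 4 (7), mitochondrially encoded genes 5 and 6 (11; the last setting removes them), transcription factors 6, 6 and 6 (10), fetal growth 5, 4 and 5 (9), unfolded protein response 1, 1 and 2 (9), neural markers 1, 1 and 1 (2). Rises became 4, 3 and 3 (1) for endothelial and 6, 7 and 4 (1) for duct markers, 2, 3 and 2 (0) for fetal growth, 2, 1 and 2 (0) for progenitor factors, 1, 4 and 0 (0) for chromatin regulators, 3, 5 and 2 (0) for the unfolded protein response and 1, 2 and 1 (0) for regulators of the G1 phase. With quantile normalization alone the lower counts moved to 6 for chromatin regulators, 11 for ribosomal proteins, 1 for duct and 1 for mesenchyme markers. Rescaling without hormone and mitochondrial genes left 0 falls of hormones or mitochondrially encoded genes, because that setting removes them. After quantile normalization the differences of NR3C1 (0.40), PDIA4 (0.0814), PKM (0.0552), SSR1 (0.015), INSM1 (0.013) and CPE (0.00083) turned positive, each called in 1 of the 2 settings compared. So did, without a call in either, UCN3 (0.47), FOXO1 (0.36), IGF2 (0.26), MYT1 (0.23), HSPA5 (0.22), MEIS1 (0.16), CRY1 (0.09), RFX3 (0.08) and PCDH17 (0.04). Of the values recomputed for named genes, 6493 kept direction and side of the threshold, 108 changed sign without being called in either, 264 lost and 66 gained the call. The causes of these changes were not tested. Depth is unknown, so what it limits cannot be given. The replicate numbers were given in accession order and pair no libraries, but 13 beta libraries have an alpha library of the same age whose title number is 1 or 2 higher. The labels do not say what such neighbours share. Their deviations from the group means correlated by 0.0128 to 0.201, and 12 of the 13 beta libraries correlated best with their own neighbour. That count overstates the separate results, because deviations within a group of 2 mirror each other. Both pairs of E90 (0.043) and both of P8 (0.105) therefore share 1 correlation. At E90, P8 and P22, with 2 alpha libraries each, any positive correlation makes the own neighbour the best. With these neighbours as a replicate block, chosen after seeing the data, 26% of genes were called in the net, 14.5% in the alpha and 3.09% in the late fetal comparison, and no named gene changed its call.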
